A study of Mus musculus with 12 samples.

Results

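The response of B cells that carry a DREAM transgene to activation was read from 6 of the study's 12 arrays. They were chosen by their titles: 3 arrays of transgenic cells stimulated for 2 days and 3 arrays of unstimulated transgenic cells. No genes were selected. All 45037 probe sets other than array controls were tested, and 18193 genes were each represented by 1 probe set. RNA came from splenic B cells, isolated by removing CD43-positive cells to a stated purity above 98%. The transgenic genotype is given as EFLmDREAM, a transgene of DREAM. Stimulated cells had been cultured with lipopolysaccharide (LPS, 20 µg per ml) and recombinant mouse interleukin 4 (IL-4, 10 ng per ml), and unstimulated cells are labelled day 0. The other 6 arrays hold wild type cells in the same 2 states and are compared with the transgenic response only where it differed from theirs. They enter every transgenic value all the same, since all 12 arrays were normalized together and share 1 estimate of the spread. The promoter that drives the transgene, the strain and age of the mice, and whether an array holds 1 mouse or a pool are not in the labels or processing notes. The series describes the 3 arrays of a group as independent biological replicates. There is no group cultured for 2 days without LPS and IL-4, so time in culture and stimulation cannot be told apart in any difference given here.

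LPS binds TLR4 on B cells and signals through MYD88 to NF-kB and the MAP kinases, and IL-4 signals through JAK kinases to the transcription factor STAT6. Given together, they bring resting splenic B cells into growth and repeated division, switch immunoglobulin classes, and start some cells on the way to antibody-secreting plasmablasts. DREAM, the protein of Kcnip3, is a calcium sensor of the KChIP family that represses genes by binding DNA and lets go when calcium binds to it; it is not the cell cycle repressor complex of the same name.

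Levels are quantile-normalized log2 intensities, on which the median of all values is 5.70. Differences are stimulated minus unstimulated on that log2 scale, ± SE from limma, with n = 3 arrays per state; a gene rose or fell where its adjusted p, over all 45037 probe sets, was under 0.05. The deposited table holds no detection calls, so whether a low level lies above background is unknown. The 3 arrays of a state correlated with each other at 0.994 to 0.996 (unstimulated) and 0.994 to 0.996 (stimulated), and arrays of different states at 0.912 to 0.918. All 8 measured B cell markers of 9 listed lay above the median level in both states. Granulocyte markers stood high in the unstimulated transgenic arrays, despite their stated purity: the log2 of their summed levels was 13.74 to 14.33, against 10.08 to 10.43 in unstimulated wild type arrays. In the deposited values the medians of the unstimulated transgenic arrays were 6.02 to 6.05 and those of the stimulated arrays 5.39 to 5.41, which is why the scaling matters for small differences. Eif2s3y, a Y-linked gene, was at 3.45 to 3.60 in both transgenic replicates 3 and at 8.42 to 9.05 in their replicates 1 and 2, with the same split in wild type arrays (3.48 to 3.62 and 8.38 to 9.51), and Xist read 9.40 to 11.61 in all 6 transgenic arrays. Replicates of 1 number thus share this feature across the 4 groups. Replicates 1 and 2 of every group read high for both Eif2s3y and Xist, an RNA of female cells. They therefore cannot be taken as single mice. Without the unstimulated or the stimulated replicate 3 the activation contrast called 9815 and 10019 genes, against 10631 with all arrays.

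Most of the genes differed between stimulated and unstimulated transgenic B cells. Of 18193 genes 10631 passed limma's moderated test (58.4%), 6394 higher (35.1%) and 4237 lower (23.3%) in stimulated cells. Of 45037 probe sets 24840 passed (55.2%), 13556 higher (30.1%) and 11284 lower (25.1%). At least a 2-fold change was found for 1698 of the higher genes (9.33% of all genes) and 1334 of the lower genes (7.33%). The very large changes were more often falls: above 4 on the log2 scale, 11 genes rose and 41 fell, while between 1 and 2 there were 1337 rises and 938 falls. The unstimulated and stimulated arrays did not overlap for 67.2% of the genes. The direction of small changes depended on the scaling. Of the called probe sets 54.6% were higher after quantile normalization, 17.5% on the deposited values and 73.3% with each array's median subtracted, since these scalings place the median of all probe sets at 0.040, −0.40 and 0.24. On the deposited values 876 of the called genes were called in the opposite direction, and with medians subtracted 324; none of the 3032 genes with at least a 2-fold change was among them. The lists described next are therefore read beside the median of all genes, 0.083, and the shares called, 35.1% higher and 23.3% lower.

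**Figure D1:**
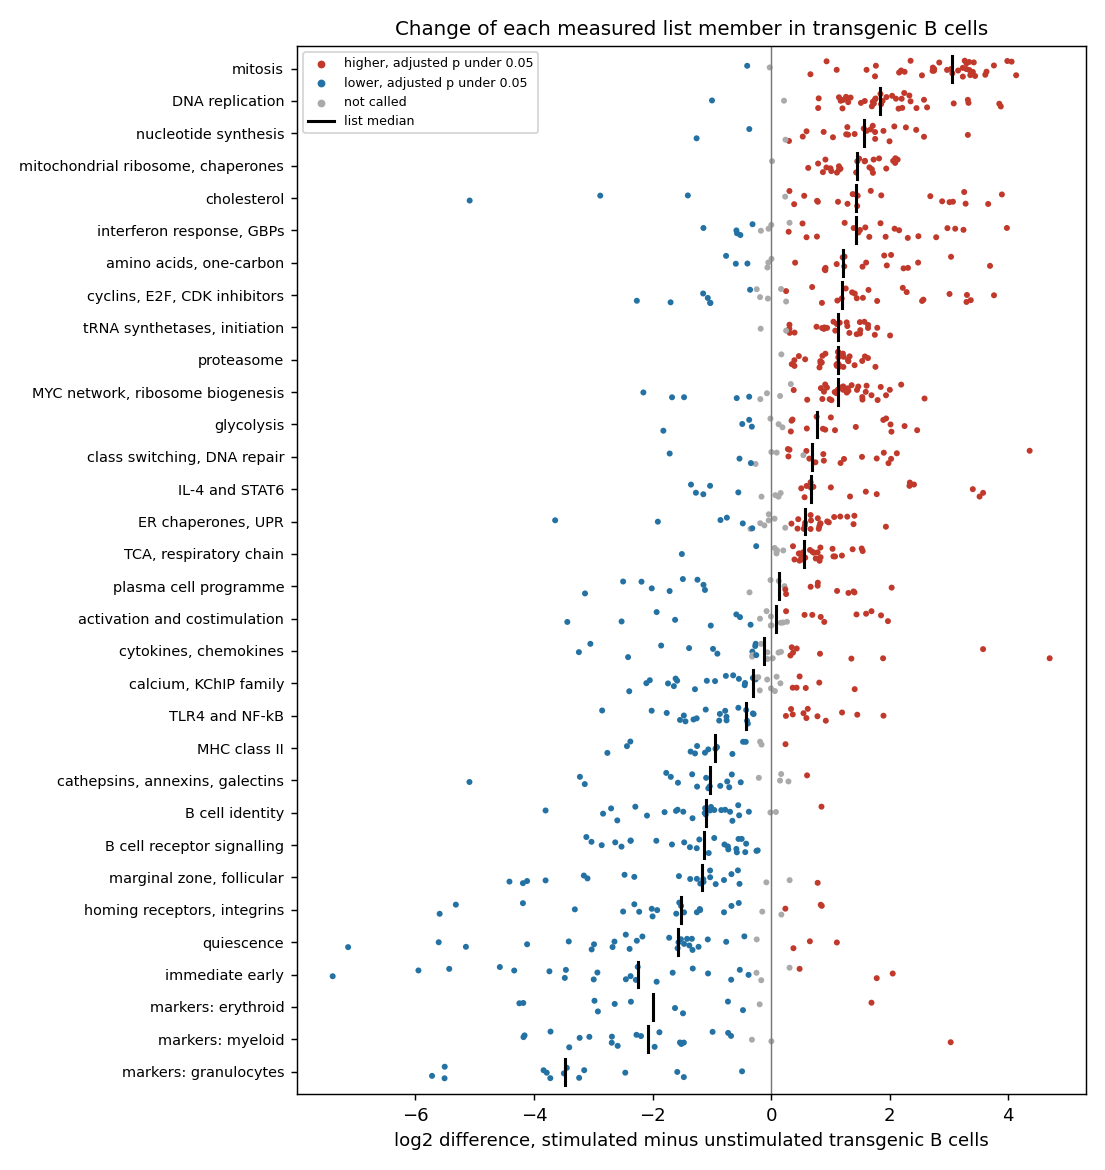
Log2 difference, stimulated minus unstimulated transgenic B cells (x axis), of every measured member of 32 gene lists (y axis), 1 point per gene; red and blue points passed limma's test as higher and lower, grey points did not, and the black bar is the list's median. Mitosis sits farthest to the right with a median of 3.05, and markers of granulocytes farthest to the left with −3.47.

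The largest rises joined secreted factors with genes of DNA synthesis, mitosis and metabolism. Clones, predicted genes and genes whose arrays overlap are left out of this ranking. Over all genes the highest difference was 6.08. Cxcl3, a chemokine that draws neutrophils, lay at 3.45, 3.47 and 3.41 in unstimulated and 8.27, 9.40 and 8.49 in stimulated arrays. All 3 stimulated arrays were above all unstimulated ones, with a wide spread among them, and the difference was 5.28 ± 0.32 (38.8-fold, adjusted p = 1.54e-08). The cytokine Il6, which supports plasma cells, read 3.54, 3.78 and 3.79 in unstimulated and 8.22, 8.72 and 8.26 in stimulated arrays. It rose by 4.70 ± 0.13, or 26.0-fold (adjusted p = 2.42e-11), with no overlap. The lipid phosphate phosphatase Plpp1 (4.56 ± 0.10), Exo1 (4.36 ± 0.13), an exonuclease of mismatch repair, and Cth (4.27 ± 0.12), which makes cysteine, followed. Fabp5, a fatty acid carrier, rose by 4.24 ± 0.17, and Slc7a3, a transporter of cationic amino acids, by 4.09 ± 0.083. The kinase Melk (4.14 ± 0.19), the spindle protein Hmmr (4.06 ± 0.091) and the centrosome kinase Nek2 (3.98 ± 0.12) belong to dividing cells. The other 5 of the 15 largest rises, Bub1, Ifit1, Idi1, Cdc6 and Uhrf1, are described with their groups.

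Immediate early genes, other regulators and genes typical of myeloid cells made up the 15 largest falls. Fosb, an AP-1 subunit induced within minutes of many stimuli, was at 11.37, 11.59 and 11.26 in unstimulated and 3.98, 3.88 and 4.18 in stimulated arrays. Every unstimulated array was far above every stimulated one, a fall of 7.39 ± 0.099 on the log2 scale (168-fold lower, adjusted p = 8.09e-14). Rasgef1b, an exchange factor for small GTPases, differed by −7.38 ± 0.12. The zinc finger factor Klf4, which holds B cells out of the cell cycle, read 11.57, 11.54 and 11.38 in unstimulated and 4.47, 4.27 and 4.35 in stimulated arrays. Its arrays did not overlap either, and it fell by 7.13 ± 0.12. The nuclear receptor Nr4a1 (−5.95 ± 0.097), the AP-1 subunit Fos (−5.43 ± 0.15), Tsc22d3 (−5.61 ± 0.11), which encodes the glucocorticoid-induced protein GILZ, and Klf6 (−5.15 ± 0.096) fell as well. So did Rgs2 (−5.59 ± 0.082) and Rgs1 (−5.32 ± 0.10), which shorten signalling through G protein-coupled receptors. The remaining 6 of the 15 largest falls were genes typical of myeloid cells: F13a1 (−6.10 ± 0.21), a coagulation factor subunit of macrophages and platelets, the calprotectin genes S100a9 and S100a8 (−5.72 ± 0.18 and −5.51 ± 0.18), the granule protein gene Ngp (−5.50 ± 0.18), the chemokine gene Ccl6 (−5.30 ± 0.22) and Anxa1 (−5.09 ± 0.15). Most listed markers of granulocytes and myeloid cells fell, as described at the end. In bulk samples fewer cells of a type and less RNA per cell cannot be told apart.

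**Figure D2:**
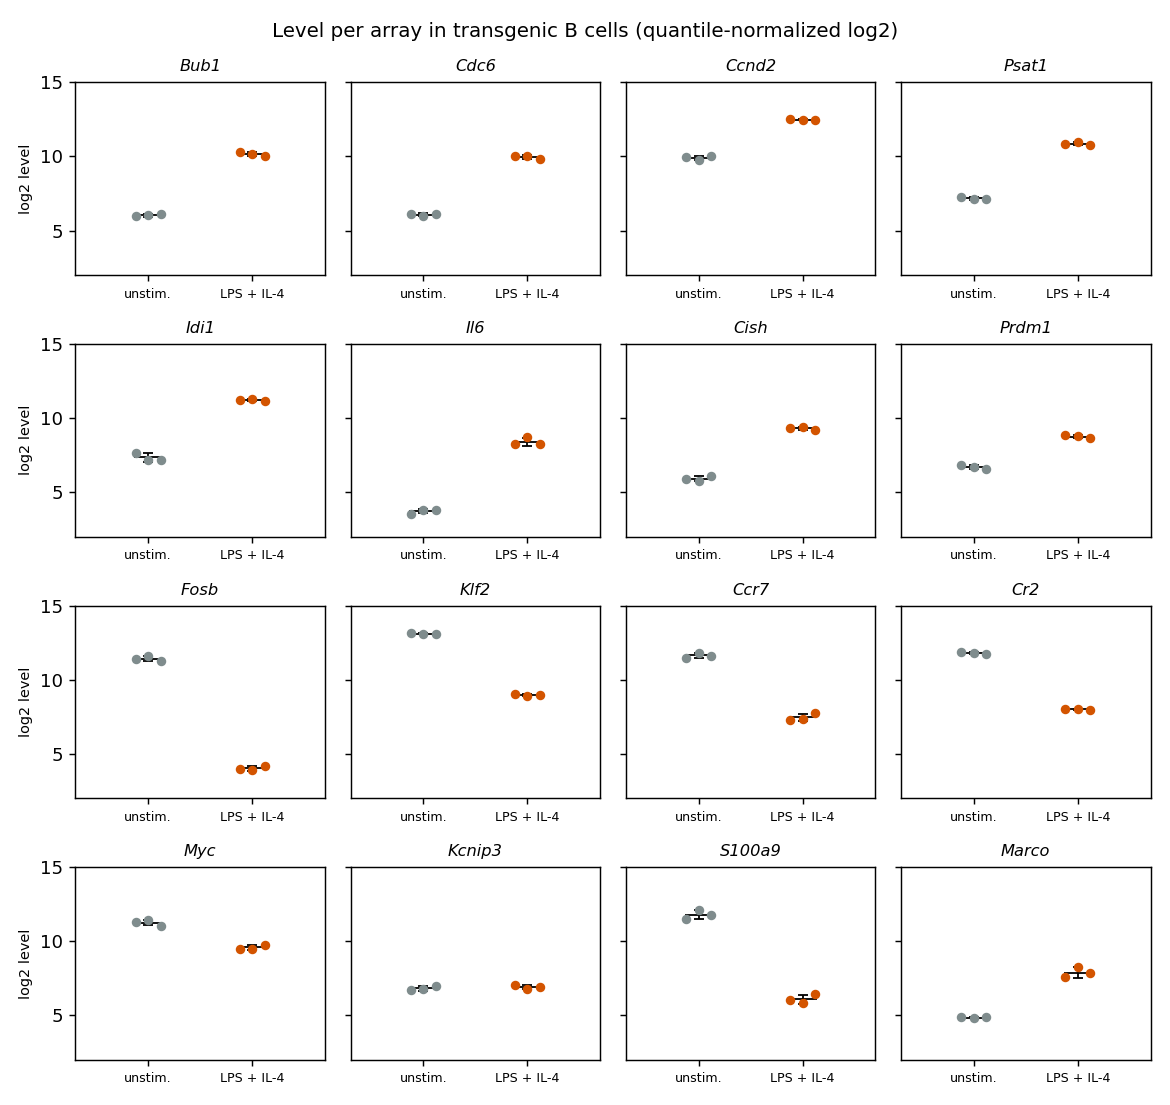
Quantile-normalized log2 level (y axis) of 16 genes in the 3 unstimulated (grey) and 3 stimulated (orange) transgenic arrays, 1 point per array, with the mean as a horizontal line and the SD as a bar. Bub1 to Prdm1 and Marco lie higher in stimulated cells and Fosb to Myc and S100a9 lower, without overlap, while the arrays of Kcnip3 overlap.

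Genes of mitosis rose as a group. Of 40 measured genes of mitosis and chromosome segregation 38 rose, 36 of them at least 2-fold, and 1 fell, with a median difference of 3.05. Bub1, the kinase of the spindle checkpoint, was at 5.95, 6.01 and 6.13 in unstimulated and 10.30, 10.16 and 10.04 in stimulated arrays. The stimulated arrays were all higher, by 4.13 ± 0.24 (17.5-fold, adjusted p = 9.21e-09). Ncapg, a condensin subunit, read 5.61, 5.62 and 5.50 in unstimulated and 9.32, 9.41 and 9.28 in stimulated arrays, again with no overlap and a difference of 3.76 ± 0.15. Hmmr and Nek2 were the other members among the 4 largest rises. Mki67, the proliferation marker, rose by 2.19 ± 0.12. Pttg1, the securin that restrains separase, was the member that fell, by 0.40 ± 0.092; with array medians subtracted it rose by 0.55, and in wild type cells it differed by 0.64. That difference between genotypes, −1.04 ± 0.13, passed the test (adjusted p = 0.00146).

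The promoters of mitotic genes were searched for TTTGAA, the cell cycle homology region (CHR) that recruits cell cycle factors to such promoters, on both strands of the 300 bases from 250 before to 50 after the start site. RefSeq promoters were found for 33 of the 40 genes, and 25 of their 35 promoters (71.4%) held the letters, against 17.9% of all 32851 promoters of that length. The promoters of Hmmr and Ncapg are shown because they belong to the largest rises of the group with a match, which is in capitals; a match describes the sequence and is not a shown binding site. Both are printed 5′ to 3′ on the gene's strand, from RefSeq on GRCm38.p6. Hmmr lies on the minus strand at chr11:40733388-40733687, with its match starting 8 bases after the start site, and Ncapg on the plus strand at chr5:45669675-45669974, with its match starting 30 bases before the start site.
Hmmr: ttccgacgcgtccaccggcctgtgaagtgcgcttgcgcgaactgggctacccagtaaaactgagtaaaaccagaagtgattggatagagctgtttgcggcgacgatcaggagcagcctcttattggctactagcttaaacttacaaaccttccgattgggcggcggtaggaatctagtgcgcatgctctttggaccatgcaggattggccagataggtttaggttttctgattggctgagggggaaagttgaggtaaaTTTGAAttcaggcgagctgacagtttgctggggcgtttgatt
Ncapg: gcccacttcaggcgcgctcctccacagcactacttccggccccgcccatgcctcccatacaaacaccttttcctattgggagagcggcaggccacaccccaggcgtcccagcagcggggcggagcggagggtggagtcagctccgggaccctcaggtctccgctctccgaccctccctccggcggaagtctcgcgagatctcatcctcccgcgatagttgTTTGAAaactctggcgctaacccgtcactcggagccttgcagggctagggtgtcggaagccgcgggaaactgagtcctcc

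DNA replication genes followed the same course. Of 39 measured genes of the replication machinery 37 rose, 35 at least 2-fold, and the median was 1.84. Cdc6, which loads the MCM helicase on origins, was at 6.13, 5.96 and 6.12 in unstimulated and 10.02, 10.02 and 9.79 in stimulated arrays. That is a rise of 3.87 ± 0.16 with no overlap (14.7-fold, adjusted p = 4.89e-10). Uhrf1, which brings DNA methylation to newly copied strands, rose by 3.85 ± 0.11, the replication factor Mcm10 by 3.33 ± 0.084, and Rrm2, the regulated subunit of ribonucleotide reductase, by 3.32 ± 0.13. Cdt1, the partner of CDC6 in origin licensing, fell by 1.00 ± 0.10, the only fall in the list, and was at −0.083 and not called with array medians subtracted.

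The same windows of the replication genes were searched for TTTCCCGC and TTTGGCGC, the letters most often seen at sites of E2F factors, which switch on S phase genes. Of 41 promoters of 33 of these genes 12 held 1 or the other (29.3%), against 1.56% of all promoters. The promoters of Cdc6 and of Mcm3, a helicase subunit that rose by 2.20 ± 0.13, are printed in the same way with the matches in capitals, Mcm3 because it holds 2. Cdc6 lies on the plus strand at chr11:98907901-98908200, with its match starting 138 bases before the start site, and Mcm3 on the minus strand at chr1:20820263-20820562, with matches starting 19 bases after and 38 bases after the start site.
Cdc6: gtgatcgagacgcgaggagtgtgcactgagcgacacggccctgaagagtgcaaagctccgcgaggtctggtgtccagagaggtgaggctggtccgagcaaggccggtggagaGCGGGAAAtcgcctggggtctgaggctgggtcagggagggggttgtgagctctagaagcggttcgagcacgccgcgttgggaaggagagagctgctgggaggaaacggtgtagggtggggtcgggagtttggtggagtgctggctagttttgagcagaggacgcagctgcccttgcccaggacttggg
Mcm3: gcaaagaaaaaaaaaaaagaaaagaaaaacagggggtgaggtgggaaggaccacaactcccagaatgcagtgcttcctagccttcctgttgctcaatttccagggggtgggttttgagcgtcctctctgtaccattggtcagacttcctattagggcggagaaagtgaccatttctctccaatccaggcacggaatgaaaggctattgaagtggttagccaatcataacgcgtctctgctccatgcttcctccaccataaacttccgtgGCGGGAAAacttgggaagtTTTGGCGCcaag

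Regulators of the cell cycle moved in both directions. Among 33 cyclins, kinases, E2F factors, pocket proteins and kinase inhibitors 21 rose and 7 fell. Ccne2 (cyclin E2) rose by 3.76 ± 0.10, the repressor E2f8 by 3.30 ± 0.14, Cdk1, the kinase of mitotic entry, by 3.30 ± 0.13, and Cdkn2b, an inhibitor of CDK4 and CDK6, by 3.37 ± 0.11. Among the D cyclins, Ccnd2 read 9.98, 9.74 and 10.00 in unstimulated and 12.53, 12.45 and 12.44 in stimulated arrays, a rise of 2.57 ± 0.095 without overlap. Ccnd1 fell by 1.03 ± 0.099, and Ccnd3 differed by −0.054 ± 0.13 at its brightest probe set (adjusted p = 0.754), with 1 of its 3 probe sets higher and 1 lower. Its probe set with the largest spread fell by 2.98. In wild type cells Ccnd2 rose by 3.40, and the difference between the 2 changes, −0.83 ± 0.13 at its brightest probe set, passed the test (adjusted p = 0.00770). It passed at 2 of the 7 Ccnd2 probe sets, and the third brightest gave −0.10 (adjusted p = 0.771). The differences of Ccnd1 and Ccnd3 passed as well (−0.63 ± 0.14 and −1.002 ± 0.19, adjusted p = 0.0409 and 0.0180), but were lost under 14 and 5 of 17 alternatives. The inhibitor Cdkn1b (p27), which keeps lymphocytes quiescent, fell by 2.26 ± 0.12, as did Ccng2 (−1.70 ± 0.13) and the pocket protein gene Rbl2 (−1.07 ± 0.086). Cdkn1a (p21) differed by 0.25 ± 0.13 and did not pass (adjusted p = 0.110); without unstimulated replicate 2 it was 0.40 and called.

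Genes for making ribosomes and proteins rose while Myc itself fell. In the list of the MYC network and ribosome biogenesis 32 of 41 genes rose and 5 fell (median 1.12). Myc, whose protein drives growth genes, was at 11.27, 11.43 and 11.06 in unstimulated and 9.51, 9.49 and 9.76 in stimulated arrays. It was lower in all 3 stimulated arrays (difference −1.67 ± 0.12, adjusted p = 7.40e-08). Mnt, which competes with MYC for MAX, fell by 2.15 ± 0.082 at 1 of its 2 probe sets and rose at the other, and Mxd4 fell by 1.47 ± 0.18. Spermidine synthase Srm rose by 2.59 ± 0.14, and the ribosome assembly genes Nop58, Wdr12 and Nip7 rose by 2.19 ± 0.19, 2.00 ± 0.084 and 1.94 ± 0.092. Of 28 tRNA synthetases and initiation factors 26 rose and none fell (median 1.13), led by Tars (2.01 ± 0.097), Rars (1.79 ± 0.086) and Mars1 (1.75 ± 0.070). Of 27 mitochondrial ribosomal proteins and chaperones 26 rose and none fell (median 1.45), among them the import factor Timm8a1 (2.13 ± 0.088), the chaperonin Hspd1 (2.10 ± 0.089) and Mrps10 (2.09 ± 0.15). The proteasome list had 31 rises in 32 and no fall, with Psmd1 (1.76 ± 0.12) and Psma5 (1.63 ± 0.11) in front.

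Biosynthetic enzymes rose broadly. Of 25 enzymes of purine and pyrimidine synthesis 22 rose and 2 fell (median 1.56). Tyms, thymidylate synthase, rose by 2.58 ± 0.11 at its brightest of 4 probe sets, where 2 were higher and 1 lower, and Ppat, the first enzyme of the purine path, by 2.45 ± 0.11 at its brightest of 3, where 2 were higher and 1 lower. Pfas, a later enzyme of that path, rose by 2.27 ± 0.15. In amino acid supply and one-carbon metabolism 18 of 24 rose and 3 fell, with 5 falls on the deposited values and 1 with array medians subtracted. Psat1, of serine synthesis, read 7.26, 7.15 and 7.11 in unstimulated and 10.85, 10.95 and 10.79 in stimulated arrays, with no overlap and a difference of 3.69 ± 0.13 (12.9-fold). Asparagine synthetase Asns rose by 3.04 ± 0.14, the mitochondrial folate enzymes Mthfd2 and Shmt2 by 2.48 ± 0.093 and 2.31 ± 0.098 (Shmt2 at 3 of 4 probe sets, with 1 lower), and Slc7a5, the light chain of the main leucine transporter, by 2.23 ± 0.093. Its heavy chain Slc3a2 fell by 0.59 ± 0.079, a direction that turned to a rise of 0.33 with array medians subtracted.

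Genes of cholesterol synthesis rose while those of export fell. Of 25 genes 21 rose and 3 fell, and the falls were the cholesterol exporters Abca1 and Abcg1 and Mylip, which degrades the LDL receptor. Idi1, an isomerase of the mevalonate path, was at 7.67, 7.17 and 7.17 in unstimulated and 11.23, 11.30 and 11.16 in stimulated arrays. The rise was 3.89 ± 0.13 (14.9-fold, adjusted p = 1.16e-10) without overlap. Fdps, which builds farnesyl diphosphate, rose by 3.66 ± 0.13, and the squalene epoxidase Sqle and the demethylase Msmo1 by 3.28 ± 0.13 and 3.26 ± 0.12. Abca1 read 11.10, 11.20 and 10.88 in unstimulated and 5.89, 6.25 and 5.79 in stimulated arrays. All stimulated arrays were lower (difference −5.08 ± 0.12, 33.9-fold lower, adjusted p = 5.49e-12). Mylip and Abcg1 differed by −2.88 ± 0.10 and −1.40 ± 0.083. The sterol element TCACNCCAC, read by SREBP factors, was in 1 of 28 promoters of the list (3.57%) and in 1.24% of all promoters.

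Glucose and respiratory genes changed less. In glycolysis, the pentose phosphate path and lactate transport 16 of 23 rose and 4 fell, with a median of 0.77; 13 rose and 8 fell on the deposited values, and 20 rose and 1 fell with array medians subtracted. The lactate carrier Slc16a1 rose by 2.46 ± 0.14, triose phosphate isomerase Tpi1 by 2.25 ± 0.10 and hexokinase Hk2 by 2.03 ± 0.13. The glucose transporter Slc2a3 fell by 1.82 ± 0.11. Of 35 genes of the TCA cycle and respiratory chain 28 rose and 2 fell, and 7 rose at least 2-fold (median 0.56). The median was 0.79 on the deposited values and 1.43 with array medians subtracted, so the size of the rise depended on the scaling. Atp5g1 (1.54 ± 0.091) and Ndufab1 (1.53 ± 0.078) led, and Cox7c fell by 1.51 ± 0.11.

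Most genes of the IL-4 response rose, while parts of its signalling chain fell. Of 25 genes in the IL-4 list 16 rose and 5 fell, with a median of 0.67. Cish, a feedback inhibitor of STAT signalling, was at 5.89, 5.75 and 6.06 in unstimulated and 9.34, 9.37 and 9.21 in stimulated arrays. The states did not overlap, and it rose by 3.40 ± 0.086 (10.6-fold, adjusted p = 1.11e-11). The chemokine Ccl22 rose by 3.58 ± 0.12, and the inhibitors Socs2 and Socs1 by 3.52 ± 0.10 and 2.41 ± 0.12; for Socs2 4 of 6 probe sets were higher and 1 was lower. The receptor chain Il4ra rose by 1.01 ± 0.078 and the IL-4-induced oxidase Il4i1 by 0.67 ± 0.15, which on the deposited values was 0.053 and not called. The kinase Jak1 (−1.35 ± 0.12), the prostaglandin receptor Ptger4 (−1.27 ± 0.085) and Stat6 (−1.14 ± 0.076) fell. Fcer2a, the low-affinity IgE receptor CD23 that IL-4 is known to raise, read 11.998, 11.91 and 12.004 in unstimulated and 10.97, 11.06 and 10.79 in stimulated arrays, with no overlap. It fell by 1.03 ± 0.11, but by 0.12 and without a call with array medians subtracted (adjusted p = 0.321). The STAT6 motif, TTC and GAA 4 bases apart on either strand, occurred in 5 of 28 promoters of the list (17.9%) and in 6.95% of all promoters.

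The NF-kB list leaned to falls. Of 31 genes of TLR4 and NF-kB signalling 11 rose and 20 fell (median −0.42), and with array medians subtracted 13 rose, 11 fell and the median was 0.080. The adaptor Traf1 rose by 1.90 ± 0.14, the death receptor inhibitor Cflar by 1.45 ± 0.077, and Ly96, the MD-2 subunit of the LPS receptor, by 1.20 ± 0.17, with Tlr4 itself at 0.60 ± 0.10, or 0.0033 and not called on the deposited values. The inhibitor Nfkbid fell by 2.85 ± 0.075, the deubiquitinase Tnfaip3 (A20) by 2.01 ± 0.069, Tlr2 by 1.76 ± 0.16, and the subunit Rel by 1.54 ± 0.12. Cytokines and chemokines were mixed as well, with 9 rises and 11 falls among 28 genes. On the deposited values 5 rose and 20 fell, and with array medians subtracted 10 and 7. Beside Il6 and Ccl22, Ebi3, a shared subunit of IL-27 and IL-35, rose by 1.89 ± 0.087, less than in wild type cells (2.86, difference −0.97 ± 0.12). Lymphotoxin beta, Ltb, fell by 3.24 ± 0.16 and Il12a by 2.41 ± 0.10. Il1b, a cytokine of myeloid cells, fell by 3.05 ± 0.20 and differed by −0.73 in wild type cells (difference −2.31 ± 0.29, adjusted p = 0.00146).

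Surface molecules of activation did not move as 1 group. Of 26 activation and costimulatory genes 10 rose and 8 fell, with a median of 0.084, close to that of all genes; with array medians subtracted 16 rose and 6 fell, and on the deposited values 11 and 12. Tnfsf9 (4-1BB ligand) rose by 1.97 ± 0.10, the IL-2 receptor chain Il2ra by 1.85 ± 0.095, the transferrin receptor Tfrc by 1.69 ± 0.10 and the death receptor Fas by 1.60 ± 0.097. Cd86, a ligand of CD28, rose by 0.56 ± 0.10, less than in wild type cells (1.33; difference −0.76 ± 0.14, adjusted p = 0.0175, and 0.0550 without wild type stimulated replicate 2). Icosl (−3.44 ± 0.12), the ligand of ICOS, Cd274 (−2.52 ± 0.11), which is PD-L1, and the early activation marker Cd69 (−1.93 ± 0.075) fell. The interferon list had 21 rises and 5 falls in 30 genes (median 1.43), with 8 falls on the deposited values and 2 with array medians subtracted. Ifit1, which binds viral RNA, rose by 3.98 ± 0.15, the RNA sensor Ifih1 by 3.24 ± 0.16, and Usp18, which removes ISG15, by 3.11 ± 0.19. The guanylate-binding protein gene Gbp2 rose by 2.97 ± 0.11, against 4.58 in wild type cells (difference −1.61 ± 0.16, adjusted p = 2.63e-04). Ifi204 fell by 1.14 ± 0.21.

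Genes of B cell identity fell, as did receptor signalling genes, though how many depended on the scaling. Of 28 identity genes 25 fell and 1 rose (median −1.10), and 15 fell and 4 rose with array medians subtracted. Cr2, the complement receptor CD21, was at 11.86, 11.82 and 11.71 in unstimulated and 8.03, 8.01 and 7.94 in stimulated arrays. The stimulated arrays lay below all unstimulated ones (difference −3.80 ± 0.069, 14.0-fold lower, adjusted p = 9.10e-13). The transcription factors Bcl6 (−2.83 ± 0.11), Ets1 (−2.70 ± 0.084), Bach2 (−1.33 ± 0.24) and Foxo1 (−1.58 ± 0.078) fell, as did the inhibitory surface protein Cd72 (−2.59 ± 0.093); the call of Bach2 was lost with array medians subtracted (−0.43). Pax5, which fixes B cell identity, read 7.72, 7.43 and 8.06 in unstimulated and 7.58, 7.80 and 7.79 in stimulated arrays, and these overlap (difference −0.012 ± 0.15, adjusted p = 0.956, and −0.40, called, on the deposited values). Id3, an inhibitor of E proteins, was the member that rose, by 0.85 ± 0.10. All 26 measured genes of receptor signalling and its inhibitory receptors fell (median −1.13); with array medians subtracted 14 fell and 5 rose. Blk, a kinase at the receptor, fell by 3.12 ± 0.072, and the inhibitory receptors Cd300a and Pirb by 3.03 ± 0.22 and 2.63 ± 0.16. Fcrla fell by 2.86 ± 0.099, less than in wild type cells (−4.04, difference 1.18 ± 0.14). Antigen presentation by MHC class II had 14 falls in 17 genes, led by the ubiquitin ligase Marchf1 (−2.76 ± 0.095, 2 of 3 probe sets lower and 1 higher) and the peptide-loading modulators H2-Oa (−2.43 ± 0.080) and H2-Ob (−2.37 ± 0.093).

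Most receptors that place B cells in the spleen fell. Of 25 homing receptors, integrins and their regulators 20 fell and 3 rose (median −1.52). Ccr7, which guides cells to the T zone, was at 11.49, 11.79 and 11.62 in unstimulated and 7.30, 7.32 and 7.73 in stimulated arrays. All stimulated arrays were lower (difference −4.19 ± 0.11, 18.2-fold lower, adjusted p = 1.70e-11). S1pr1, the receptor for leaving lymphoid tissue, differed by −3.31 ± 0.17. The integrin chain Itgb1 and the hyaluronan receptor Cd44 rose by 0.85 ± 0.17 and 0.84 ± 0.12. Cxcr4, the receptor for CXCL12, fell by 2.50 ± 0.21, and by 4.24 in wild type cells (difference 1.75 ± 0.30, adjusted p = 0.0106). Of 24 markers of marginal zone and follicular cells 21 fell, 15 with array medians subtracted. Cd55, a complement inhibitor, fell by 4.41 ± 0.068 and Cd1d1, which presents lipids, by 3.16 ± 0.12.

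The plasma cell programme was divided. Of 23 genes 10 rose and 9 fell, with a median of 0.13. Prdm1, which encodes BLIMP-1, the factor that ends the B cell programme, was at 6.86, 6.71 and 6.58 in unstimulated and 8.85, 8.77 and 8.64 in stimulated arrays. It rose by 2.03 ± 0.15 without overlap (4.09-fold, adjusted p = 1.25e-07). Slamf7, a surface receptor of plasma cells, rose by 1.41 ± 0.074, the chaperone gene Creld2 by 1.39 ± 0.088 and Xbp1, the factor that expands the secretory apparatus, by 0.67 ± 0.091. Irf4, which acts with BLIMP-1, fell by 1.12 ± 0.10, and by 0.23, without a call, with array medians subtracted. Jchain, the joining chain of polymeric immunoglobulins, read 13.45, 13.46 and 13.43 in unstimulated and 11.60, 11.84 and 11.75 in stimulated arrays, all lower when stimulated (difference −1.71 ± 0.12). Prg2, also a granule protein of eosinophils, fell by 3.14 ± 0.32 and by 0.76 in wild type cells (difference −2.38 ± 0.45, a call lost under 3 of 17 alternatives). Of 13 listed immunoglobulin genes 4 had a probe set of their own. Igha fell by 2.77 ± 0.12, and at all 3 of its probe sets, more than in wild type cells (−1.65, difference −1.12 ± 0.17). Ighg3 fell by 1.01 ± 0.26 at its brightest of 4 probe sets, a call lost with array medians subtracted (−0.41), while 2 others rose. The brightest Ighm probe set held the highest rank on every array, so quantile normalization sets its difference to 0 and it carries no information here. The second brightest, at means of 14.14 in unstimulated and 14.11 in stimulated arrays, differed by −0.037 ± 0.063 and did not pass (adjusted p = 0.646). Of the other 10 Ighm probe sets, this one included, 5 rose and 1 fell by 1.58 ± 0.38. Among the rises 4 were of 2.93 ± 0.084 to 4.04 ± 0.085, from much dimmer unstimulated means of 5.92 to 7.13. The Ighm probe sets thus do not give 1 direction.

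Chaperones of the endoplasmic reticulum rose, to an extent that depended on the scaling. Of 36 genes of secretion and the unfolded protein response 23 rose, 6 of them at least 2-fold, and 6 fell (median 0.56). With array medians subtracted 3 fell and the median was 1.40, and on the deposited values the median was 0.76. Sdf2l1 rose by 1.94 ± 0.19, Manf by 1.40 ± 0.078 and Hspa5, the chaperone BiP, by 0.57 ± 0.10. Ppp1r15a (GADD34), which restores translation after stress, fell by 3.64 ± 0.068, and Dnajb9 by 1.91 ± 0.093. In class switching and DNA break repair 17 of 24 rose and 3 fell, with 7 falls on the deposited values and 1 with array medians subtracted. Beside Exo1, the ligase Lig4 rose by 2.12 ± 0.17, Xrcc6, the Ku70 subunit, by 1.98 ± 0.076, and Rif1, which shields DNA ends, by 2.02 ± 0.11. Hmces, which protects abasic sites, fell by 1.71 ± 0.089.

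Immediate early genes had the lowest median of the lists that are not markers of other cells, −2.25, with 21 falls and 3 rises in 27 genes. Fosb, Nr4a1 and Fos led, followed by Dusp1, a phosphatase that turns off MAP kinases. Dusp1 was at 12.43, 12.56 and 12.54 in unstimulated and 7.94, 8.14 and 7.73 in stimulated arrays. It fell by 4.58 ± 0.099 with no overlap (23.8-fold lower, adjusted p = 2.84e-12). Batf3 and Batf, AP-1 factors of activated lymphocytes, rose by 2.05 ± 0.088 and 1.78 ± 0.12. The cAMP response element TGACGTCA, bound by CREB factors, was found in 2 of 27 promoters of the list (7.41%) and in 1.79% of all promoters. The Dusp1 promoter, on the minus strand at chr17:26508423-26508722 of GRCm38.p6 in RefSeq, is printed because Dusp1 was among the largest falls of the list. The element is in capitals and starts 143 bases before the start site.
Dusp1: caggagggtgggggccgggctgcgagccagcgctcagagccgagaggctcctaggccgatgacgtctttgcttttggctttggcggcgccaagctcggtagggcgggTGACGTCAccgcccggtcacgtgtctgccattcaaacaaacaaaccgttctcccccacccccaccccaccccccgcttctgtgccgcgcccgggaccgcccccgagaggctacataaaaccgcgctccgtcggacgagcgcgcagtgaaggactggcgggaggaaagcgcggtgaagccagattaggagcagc

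Quiescence genes fell with them. Of 30 genes of resting lymphocytes 26 fell, 24 at least 2-fold, and 3 rose (median −1.57). Klf2, which holds lymphocytes at rest and maintains homing receptors, was at 13.12, 13.09 and 13.07 in unstimulated and 9.05, 8.89 and 8.99 in stimulated arrays. The fall of 4.12 ± 0.071 (17.3-fold lower) left no overlap, and it exceeded the wild type fall of 3.22 (difference −0.90 ± 0.10, adjusted p = 6.81e-04). Ddit4, an inhibitor of mTORC1, rose by 1.11 ± 0.33 (without stimulated replicate 1 it was 0.93 and not called) and Arid5a, which stabilizes cytokine messages, by 0.65 ± 0.10.

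Kcnip3, the gene of DREAM, did not pass. It was at 6.69, 6.77 and 7.01 in unstimulated and 7.05, 6.81 and 6.88 in stimulated arrays, and these overlap (difference 0.093 ± 0.13, adjusted p = 0.573); on the deposited values it fell by 0.48. Its other probe set differed by 0.042 ± 0.095. In wild type cells it was at 6.49, 6.43 and 6.94 in unstimulated and 6.97, 6.84 and 6.85 in stimulated arrays, which overlap the transgenic ones in both states. Whether either probe set reads the transgene is unknown, so the genotype labels could not be checked, and every comparison of genotypes rests on them. Low transgenic levels were seen at Mndal, with means of 5.60 (unstimulated) and 5.09 (stimulated) against 8.70 over all 12 arrays. Whether the genotypes differ in more than the transgene was not tested. Among 31 genes of the KChIP family and calcium signalling 6 rose and 17 fell (median −0.31), and with array medians subtracted 8 rose, 12 fell and the median was 0.070; on the deposited values 2 rose and 24 fell. The falls were led by S100a6 (−2.39 ± 0.22), a calcium-binding protein, Orai2 (−2.10 ± 0.13), a calcium channel of the plasma membrane, S100a10 (−2.05 ± 0.087) and Nfatc1 (−1.74 ± 0.069), the calcium-driven transcription factor. The pump Atp2a2 rose by 1.41 ± 0.090 at its brightest of 6 probe sets, of which 3 were higher and 2 lower. S100a6 differed by 0.066 in wild type cells (difference −2.46 ± 0.31, adjusted p = 0.00149).

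Markers of granulocytes, myeloid and erythroid cells fell in the transgenic cells. All 14 measured granulocyte markers of 16 listed fell, 13 at least 2-fold, with a median of −3.47. S100a9, a subunit of calprotectin, was at 11.53, 12.10 and 11.78 in unstimulated and 6.02, 5.80 and 6.44 in stimulated arrays. Every unstimulated array was higher, by 52.7-fold on average (difference −5.72 ± 0.18, adjusted p = 6.86e-11). Ngp, a neutrophil granule protein, read 10.23, 11.13 and 10.49 in unstimulated and 5.04, 5.00 and 5.30 in stimulated arrays, and Camp, the cathelicidin, 8.85, 9.67 and 8.92 in unstimulated and 5.04, 5.57 and 5.33 in stimulated arrays, again with no overlap. Of 22 myeloid markers 19 fell and 1 rose (median −2.08), and of 12 erythroid markers of 16 listed 10 fell and 1 rose (median −1.99). They included Tyrobp (−4.18 ± 0.14), an adaptor of myeloid receptors, Csf1r (−4.16 ± 0.18), the receptor of the macrophage growth factor, Slc4a1 (−4.25 ± 0.29), the red cell anion exchanger, and Alas2 (−4.18 ± 0.24), of heme synthesis. Cathepsins, annexins and galectins fell in 16 of 21 cases, with Anxa1 at −5.09 ± 0.15, Lgals3 at −3.22 ± 0.14 and Anxa2 at −3.14 ± 0.13, genes that myeloid cells also express. With array medians subtracted 11 of the 21 fell and 6 rose.

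Summed over each marker list, granulocyte levels were 13.74 to 14.33 (log2) in unstimulated and 9.74 to 10.13 in stimulated transgenic arrays, and myeloid levels 14.45 to 14.79 and 11.35 to 11.99. Erythroid sums, which hold the rising transferrin receptor, were 11.77 to 12.30 and 11.56 to 11.58, and B cell sums 15.86 to 15.87 and 15.22 to 15.24. The B cell sums hold the Ighm probe set that quantile normalization fixed at 14.52, so they understate the change of the other markers. Of the 8 measured B cell markers 6 fell and none rose, with a median of −1.07. Granulocyte and myeloid sums were thus high in all 3 unstimulated transgenic arrays and low in all 3 stimulated ones, and the wild type unstimulated arrays were lower, at 10.08 to 10.43 and 13.54 to 13.88. In stimulated wild type arrays they were 9.02 to 9.11 and 10.46 to 10.92, so both sums were lower in stimulated than in unstimulated arrays of wild type cells too. The part of such RNA in the other falls was not tested. Marco, a scavenger receptor counted as a myeloid marker, went the other way. It read 4.87, 4.80 and 4.90 in unstimulated and 7.56, 8.26 and 7.83 in stimulated arrays, a rise of 3.03 ± 0.15 with no overlap and more than the wild type rise of 1.93 (difference 1.10 ± 0.21, adjusted p = 0.0188), a call that was lost without wild type unstimulated replicate 2 or wild type stimulated replicate 1 or 3.

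**Figure D3:**
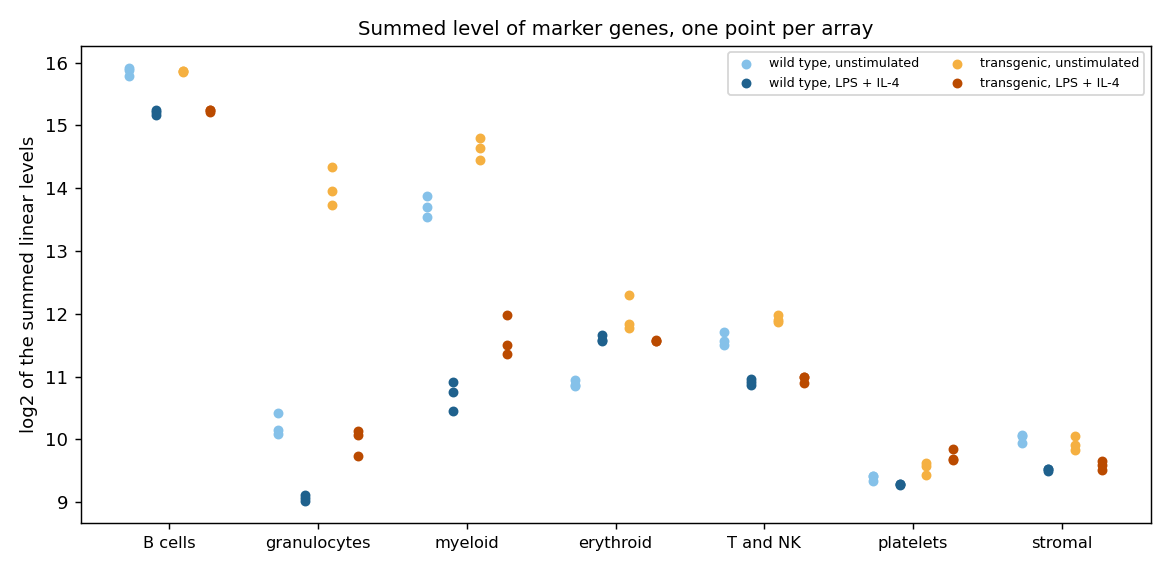
Log2 of the summed linear levels of each cell type's marker genes (y axis), 1 point per array, for 7 cell types (x axis) and the 4 groups. Granulocyte markers reach 13.74 to 14.33 in unstimulated transgenic arrays and stay at or below 10.43 in the other groups. The B cell sum includes Ighm, whose level quantile normalization fixed.

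The transgenic response was compared with that of wild type cells by the difference of the 2 changes, transgenic minus wild type. Of the 10631 genes called in transgenic cells 8975 (84.4%) were called in the same direction in wild type cells, which is 82.3% of the wild type calls; the wild type share called was 60% of genes. Another 47 were called in opposite directions, and for 39 of these the difference itself passed. Over all genes the difference passed for 417 (2.29%), 146 higher (0.803%) and 271 lower (1.49%) in transgenic cells. The 1334 genes with at least a 2-fold fall held 171 of these (12.8%), 136 of them with the more negative change in transgenic cells. The 1698 with at least a 2-fold rise held 59 (3.47%). Both sets were chosen by the transgenic change, which is part of the difference itself. Their shares and directions are biased by that choice and carry no evidence of their own. Of 38 genes named here with such a difference 25 kept the call in all 17 alternatives. Of the 19 with more than 1 probe set, Gbp2 and Igha passed at every one; Pttg1, Ccnd1 and Fcrla passed at 2 of 3, Ccnd2 at 2 of 7, Ccnd3 at 1 of 3, and Cd86 and Marco at 1 of 2, and the rest at some but not all. The first replicate of unstimulated wild type cells had the lowest 5′ minus 3′ differences of the control probe sets, a sign of RNA quality, at −2.22 for actin and −1.78 for Gapdh (log2), against −1.36 to −0.43 and −0.38 to 0.02 on the other 11 arrays. Without it the difference passed for 462 genes, and 3 of the 38, Abca1, Cbx7 and Ccnd1, lost the call. The counts depend on single arrays: the difference passed for 838 genes without wild type unstimulated replicate 3, for 273, 221 and 241 without wild type stimulated replicate 1, 2 or 3, for 256 without transgenic unstimulated replicate 3, and for 253 and 241 without transgenic stimulated replicate 1 or 2.

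Markers of other cells were among the genes that fell more in transgenic than in wild type cells. The difference passed for 11 of 14 granulocyte, 8 of 22 myeloid and 7 of 12 erythroid markers, and their median changes in wild type cells were −0.71, −0.66 and −0.57, while the summed myeloid level was lower after stimulation in both genotypes, as given above. S100a9, Ngp, Camp and Ltf, lactoferrin, made up 4 of the 5 most negative differences (−4.16 ± 0.26, −4.14 ± 0.25, −3.75 ± 0.28 and −3.33 ± 0.25). The other was Ccnb1ip1, a ubiquitin ligase of cyclin B, which read 4.53, 4.39 and 4.32 in unstimulated and 4.27, 4.42 and 4.42 in stimulated arrays with overlap, while it rose by 3.56 in wild type cells (difference −3.60 ± 0.13, adjusted p = 7.75e-08). Ccnb1ip1 has 1 probe set, below the median of all values in all 6 transgenic arrays. Whether it reads the gene above background in transgenic cells is unknown. The 5 most positive differences were in genes with large wild type falls. Mdm1, a centriole protein, rose by 1.00 ± 0.12 in transgenic cells and fell by 1.95 in wild type cells (difference 2.95 ± 0.17); its other probe set rose too, without such a difference. Plk2, a polo-like kinase, was at 8.48, 8.69 and 8.57 in unstimulated and 5.77, 5.63 and 5.84 in stimulated arrays and fell by 2.83 ± 0.084, against 5.30 in wild type cells (difference 2.47 ± 0.12, adjusted p = 9.21e-07); its dimmer probe set rose. The peptide transporter Slc15a2 differed by −0.048 ± 0.28 (adjusted p = 0.896) against −2.55, Crisp3 by −0.98 ± 0.10 against −3.03, and the collagen gene Col6a4 by −0.55 ± 0.15 against −2.57. In unstimulated and stimulated transgenic cells Slc15a2 had means of 5.06 and 5.02, and Crisp3 of 4.32 and 3.34. All of these lay below the median of all values, 5.70, so whether they read above background is unknown. A level already low before stimulation leaves little room for a fall. Slc15a2, Col6a4, Mdm1 and Plk2 have other probe sets, and none of those passed for the difference.

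**Figure D4:**
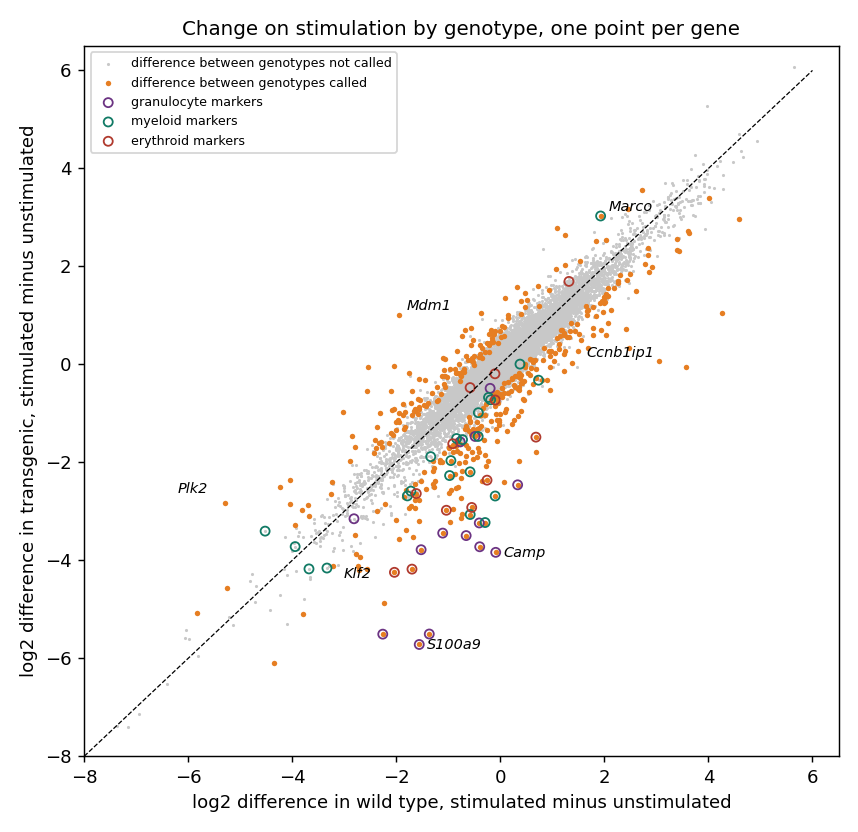
Log2 difference on stimulation in wild type (x axis) and transgenic (y axis) B cells, 1 point per gene; the dashed line marks equal changes, orange points passed the test of the difference between genotypes, and open circles mark granulocyte, myeloid and erythroid markers. Most genes lie near the line, and S100a9 (−5.72 in transgenic, −1.56 in wild type cells) and Camp (−3.84 and −0.090) lie far below it.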

How the data were processed

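Total RNA of 12 samples was hybridized to Affymetrix mouse expression arrays. The authors deposited log2 values made with RMA (affy), per the submitters' processing notes; versions, and whether the arrays were normalized in 1 run, are not given in the sources used here. Of 45101 probe sets 64 controls were left out. Names came from the platform annotation: 34945 probe sets had 1 symbol (34741 matched by Entrez identifier), 932 several and 9160 none. The probe set with the highest mean stood for a gene. The 12 arrays were quantile normalized together and fitted with limma 3.58.1 in R 4.3.3 (1 coefficient per group, moderated 2-sided test, 8 residual and 4.55 prior degrees of freedom, Benjamini-Hochberg over 45037 probe sets). With 3 arrays per group, the number of arrays limits the precision. Each p-value weighs a difference against the spread between arrays of a group, pooled over the 4 groups. That cannot be taken as the spread between single mice, since replicates 1 and 2 of each group read high for both Eif2s3y and Xist.

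The contrast and its 40 lists were chosen with earlier results of these data known, and list counts carry no set test. Named genes are the 15 largest rises and 15 largest falls whose arrays do not overlap, in each list and direction up to 4 members that passed, by size of change, the 5 largest differences between genotypes each way and listed B cell genes, without clones or predicted genes. Mcm3 and Cd1d1 were named after their values were seen. Of 1076 list entries 988 were measured, and the rest were not analysed here. Of 9010 genes with more than 1 probe set 1231 had calls in both directions. Promoters are RefSeq's, on GRCm38.p6. Same-numbered unstimulated and stimulated transgenic arrays deviated together with r of 0.12, −0.26 and 0.19. The highest r with another number was 0.27, 0.27 and 0.067. Only number 3 passed that check, and with 3 arrays per state it cannot decide whether the numbers pair the arrays. Replicates 3 shared the low Eif2s3y level in both states. Wild type arrays gave 0.39, 0.28 and 0.25, which passes that check, so the block bears on the genotype difference (2 of 38 named calls, Cbx7 and Ccnd1, lost). On simulated data with 45037 probe sets, 50 of them changed at each size, the transgenic comparison called 44% of log2 changes of 0.5, 90% of 1, 92% of −1 and 100% of 2, with 6 false calls. In the data 24840 probe sets were called, and the adjusted p depends on the share that changes. Neither these rates nor the false calls therefore carry over to the data. Alternatives were other scalings, fits of the transgenic arrays alone, a filter on dim probe sets, a variance trend, the replicate block, another probe set per gene and each array left out.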

Additional observations from a re-analysis of the deposited data

Results flagged for a closer look

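The changes on stimulation of 38 named genes differed between transgenic and wild type cells by limma's test of that difference (adjusted p under 0.05 over 45037 probe sets). Values are transgenic minus wild type change on the log2 scale. Among genes of granulocytes and their calprotectin they were −4.16 for S100a9, −4.14 for Ngp, −3.75 for Camp, −3.33 for Ltf and −3.25 for S100a8. Genes of other blood cells gave −2.48 for Alas2, −2.21 for Slc4a1, −1.76 for F13a1, −2.31 for Il1b and 1.10 for Marco. The plasma cell and immunoglobulin genes Prg2 and Igha stood at −2.38 and −1.12, S100a6 at −2.46 and Anxa1 at −1.30.

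Regulators of division and quiescence gave −3.60 for Ccnb1ip1, −1.04 for Pttg1, −1.002 for Ccnd3, −0.90 for Klf2, −0.83 for Ccnd2, −0.63 for Ccnd1, 2.47 for Plk2 and 2.95 for Mdm1. Signalling and cytokine genes gave −1.61 for Gbp2, −0.97 for Ebi3, −0.76 for Cd86, −0.62 for Nfkbid, −0.61 for Cish, 0.67 for Dusp1, 1.18 for Fcrla and 1.75 for Cxcr4. The remaining values were −0.73 for the glucose transporter Slc2a3, 0.75 for Abca1, 0.87 for Cbx7, 0.68 for Hmces, 0.78 for Rif1, 2.50 for Slc15a2, 2.05 for Crisp3 and 2.02 for Col6a4.

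The call was kept in all 17 alternatives for 25 of the 38. It was lost in 14 of them for Ccnd1, 13 for Cbx7, 10 for Dusp1 and Rif1, 9 for Abca1, 8 for Cish, 7 for Slc2a3, 5 for Ccnd3, 3 for Hmces, Marco and Prg2, and 1 for Cd86 and Slc4a1. Gene by gene, groups of 3 are too small for a test of outlying arrays.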

How the results depend on the processing

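Scaling moved the counts. On the deposited values 6181 probe sets were higher and 29226 lower, or 3377 and 11090 genes. With array medians subtracted 22217 probe sets and 9601 genes were higher, 2730 genes were lower, and 94 genes had a more positive change in transgenic than in wild type cells. Other alternatives, among them fits of the 6 transgenic arrays alone, kept the counts of the transgenic comparison within 1.5 times the reported ones. Reversed values were 0.67 for Ccnd3, 0.55 for Pttg1 and 0.33 for Slc3a2 with array medians subtracted, and −0.48 for Kcnip3 on the deposited values. Ighm gave −0.17 on the deposited values, 0.47 with medians subtracted and 4.04 at its probe set with the largest spread. The cause of these shifts was not tested. With single arrays left out, the transgenic comparison called 9772 to 11110 genes. Leaving out the wild type arrays was chosen after seeing the data for this comparison. The genotype difference passed for 221 to 838 genes, 51 to 375 higher and 170 to 463 lower. With replicate number as a block 10728 genes were called for activation and 461 for the genotype difference, and neither count moved by over 1.5 times. The deposited table holds no detection calls, which leaves the signal of dim probe sets over background unknown; without the dim ones 8561 genes were called.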

Other observations

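Enzymes of DNA methylation and chromatin moved in both directions in activated transgenic cells. Of 24 genes 14 rose and 5 fell (median 0.46), and 13 and 8 on the deposited values. Hells, a remodeller needed for DNA methylation, read 7.05, 6.80 and 6.83 in unstimulated and 10.62, 10.66 and 10.61 in stimulated arrays, with no overlap and a rise of 3.74 ± 0.19. Ezh2, the Polycomb methyltransferase of dividing cells, rose by 3.14 ± 0.10, and Suv39h2, which methylates heterochromatin, by 2.82 ± 0.10. Ezh1, the form found in resting cells, fell by 1.35 ± 0.077, and Tet2, which oxidizes methylcytosine, by 1.45 ± 0.13. The Polycomb subunit Cbx7 fell by 1.55 ± 0.14.

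Regulators of apoptosis had 9 rises and 6 falls in 20 genes, 7 and 10 on the deposited values, and 12 and 2 with array medians subtracted. The survival gene Bcl2l1 rose by 1.33 ± 0.11, and Bcl2 fell by 0.92 ± 0.094, a call lost with array medians subtracted (−0.25). Pmaip1, which encodes the killer protein NOXA, was at 9.84, 10.39 and 9.85 in unstimulated and 7.85, 7.94 and 8.12 in stimulated arrays, all lower when stimulated (difference −2.06 ± 0.13). Antioxidant genes rose in 10 of 21 cases and fell in 3, with thioredoxin reductase Txnrd1 at 1.88 ± 0.087, thioredoxin Txn1 at 1.71 ± 0.093 and catalase Cat at −1.56 ± 0.10; with array medians subtracted 17 rose and 1 fell, and on the deposited values 11 and 5. Of 8 GIMAP GTPases of lymphocytes 5 fell and 1 rose, and with array medians subtracted 2 fell and 4 rose. Gimap8 fell by 1.13 ± 0.080 and Gimap4 rose by 0.88 ± 0.072.

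Of 16 T and NK cell markers 3 rose and 7 fell, and on the deposited values 1 and 12. Thy1 read 5.38, 5.75 and 6.10 in unstimulated and 8.64, 8.35 and 8.54 in stimulated arrays, a rise of 2.77 ± 0.21 without overlap. Klrd1 and Cd2 fell by 3.53 ± 0.19 and 2.81 ± 0.094. Of 9 platelet markers 2 rose and 3 fell, with Ppbp at −2.00 ± 0.22 and Pf4 at 0.91 ± 0.17; on the deposited values 1 rose and 5 fell. Of 14 stromal and endothelial markers 1 rose and 2 fell, led by Pecam1 (−1.61 ± 0.17); on the deposited values 12 fell.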
